A study of Capra hircus with 4 samples.

Results

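CREM, SIK1 and DUSP1 are 3 genes for feedback regulators of cell signalling, and their RNA was followed in longissimus dorsi muscle of goats given the β2-agonist ractopamine. They were found as the unigenes, that is the sequences assembled from the reads, which the authors' table pairs with these goat gene names. This gave 4 of 59774 unigenes and 3 of 11208 named goat genes. RNA-seq data were analysed for 4 libraries of Cashmere goats aged 2 months, 1 from the control group and 3 from the group that received ractopamine by mouth at 1 mg/kg of body weight, in an experiment with 28 dosing days followed by 21 withdrawal days. All animals of the study were male. The labels name the treated libraries as replicates without a day, although the study sequenced several time points, so they are called treated libraries 1, 2 and 3 here, and differences among them can be differences of day, of animal or of library, which cannot be told apart.

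A β2-agonist acts at the cell surface, which raises cyclic AMP in the cell and frees the catalytic subunits of protein kinase A. The kinase phosphorylates CREB, a transcription factor that binds cyclic AMP response elements, and CREB with its coactivators switches on a set of early genes. Among them are genes for inhibitors of this route or of the MAP kinases. CREM makes several proteins from one gene, including ICER, a short repressor that has the DNA-binding domain without the part that activates. SIK1 is a kinase that phosphorylates the CRTC coactivators of CREB, which holds them in the cytoplasm, and the class IIa histone deacetylases, which moves them out of the nucleus. DUSP1, also called MKP-1, is a phosphatase that removes phosphate from MAP kinases. In muscle, SIK1 is known for its effect on the activity of MEF2 through the histone deacetylases.

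The sequences of the functional domains show which protein each unigene stands for, and they are printed from the authors' annotation table, 5′ to 3′, in lower case with the decisive codons in capitals. In the first, the capitals are the 27 bases that code for the DNA-contacting signature of a basic leucine zipper, which a repressor and an activator form of CREM share. In the second, they are the 18 bases of the site that protein kinase A phosphorylates, which only forms with the kinase-inducible domain hold. In the SIK1 stretch they are the 42 bases of the activation loop, where the kinase LKB1 phosphorylates it, and in the DUSP1 stretch the 24 bases of the catalytic signature of cysteine phosphatases.
CREM unigene c10804_g1, bases 1 to 285 of the coding stretch: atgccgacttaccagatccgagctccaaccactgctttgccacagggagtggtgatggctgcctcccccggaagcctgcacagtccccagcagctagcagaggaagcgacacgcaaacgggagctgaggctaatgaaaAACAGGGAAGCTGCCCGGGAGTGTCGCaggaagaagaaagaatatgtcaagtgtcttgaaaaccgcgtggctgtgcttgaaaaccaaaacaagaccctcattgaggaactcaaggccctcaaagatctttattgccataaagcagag
CREM unigene c45281_g1, bases 163 to 360 of the coding stretch: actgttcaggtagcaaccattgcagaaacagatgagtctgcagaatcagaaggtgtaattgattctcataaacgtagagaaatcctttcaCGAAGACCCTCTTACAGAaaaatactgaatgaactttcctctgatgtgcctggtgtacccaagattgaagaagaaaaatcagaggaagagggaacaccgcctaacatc
SIK1 unigene c13150_g3, bases 112 to 309 of the coding stretch: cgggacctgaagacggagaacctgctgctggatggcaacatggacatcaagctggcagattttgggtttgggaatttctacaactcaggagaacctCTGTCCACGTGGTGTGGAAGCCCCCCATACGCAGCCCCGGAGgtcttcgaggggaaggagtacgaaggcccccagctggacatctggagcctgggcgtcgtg
DUSP1 unigene c1259_g1, bases 679 to 882 of the coding stretch: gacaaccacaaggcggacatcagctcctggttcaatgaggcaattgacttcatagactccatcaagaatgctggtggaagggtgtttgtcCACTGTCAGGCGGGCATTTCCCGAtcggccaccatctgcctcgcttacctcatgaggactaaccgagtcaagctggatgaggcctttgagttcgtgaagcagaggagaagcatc

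The 2 CREM unigenes held different parts of the protein. Unigene c10804_g1 is 1749 bases long, and its coding stretch of 95 codons had 1 match to the basic leucine zipper signature and 0 to the kinase site. Its best match in the authors' annotation is the mouse repressor ICER I. Unigene c45281_g1 is 1092 bases long, and its 156 codons had 0 matches to the zipper signature and 1 to the kinase site. Their proteins matched goat CREM with 100% and 94% identity. The coding stretch of c10804_g1 lies at bases 432 to 716, and its last 132 bases (585 to 716) resembled a stretch further on (1006 to 1137) at 91 bases, or 68.9%. CREM is known to carry a pair of alternative DNA-binding domains in its last exons, and whether the later stretch is the other domain was not tested. SIK1 was held by 1 unigene of 4146 bases with 92% identity to the goat protein, and DUSP1 by 1 unigene of 2019 bases with 91% identity. As the authors' table places the genes by protein match and names no genome build, no chromosome positions are given.

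The libraries differed in how much of their depth fell on named genes, which bears on every value below. All counts summed to 8533046 in the control library and to 6675218 to 7962590 in the treated libraries. Named goat genes held 71.3% of them in the control library, against 50.1%, 1.82% and 40.4% in treated libraries 1, 2 and 3, and most of the rest was in 25 paired unigenes for mitochondrially encoded proteins, which carry no gene name. Treated library 2 thus rests on 133809 counts of named genes, of which 20449 (15.3%) belonged to 1 gene, TFCP2L1. There, 3 counts correspond to 22.4 counts per 1000000 counts of named goat genes (CPM), against 0.493 to 1.11 in the other libraries. TFCP2L1 made up far less of the named counts elsewhere, with 0.431% for treated library 1, 0.350% for treated library 3 and 0.119% for the control. Its large share is part of the total, so it lowers the CPM of every other gene in treated library 2. Levels are given here in this unit, with 95% exact Poisson intervals, and an x-fold is the ratio of a treated library to the control library with a 95% exact interval. These intervals cover counting error only, and 1 control library gives no replicate check. At this scaling the x-fold of the median gene with at least 50 control counts was 0.724, 0.620 and 0.690 in treated libraries 1, 2 and 3, a shift of −0.47, −0.69 and −0.54 on the log2 scale. The tissue label was met by 7 of 12 skeletal muscle markers that had a unigene, whose summed level was 85284 to 151448 CPM, and the creatine kinase CKM held most of it in the control library, with 310668 counts. One of the 7, the skeletal actin ACTA1, had 130, 6, 0 and 3 counts, below an x-fold of 0.6 in all 3 treated libraries, and reads and protein matches of near-identical actins may be divided among actin unigenes. Of the 7, 4 were below 0.6 in treated library 2. In bulk muscle, fewer cells of a type and less RNA per cell cannot be told apart.

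CREM, the gene of the ICER repressor, had 237 control counts, against 1843, 11 and 120 counts in treated libraries 1, 2 and 3. Its level was 38.9 CPM (34.1 to 44.2) in the control library, against 462 (441 to 483), 82.2 (41.0 to 147) and 44.5 (36.9 to 53.2) in treated libraries 1, 2 and 3. Treated library 1 stood far above the other libraries, and the intervals of treated library 3 and the control library overlapped. The x-fold was 11.9 (10.4 to 13.6), 2.11 (1.04 to 3.85) and 1.14 (0.909 to 1.43) in treated libraries 1, 2 and 3. Among the named genes detected in each library, of which there were 10860, 10323, 6697 and 10128, CREM stood at percentile 76.4 in the control library, 97.7 in treated library 1, and 82.3 and 81.8 in the other two.

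SIK1, the kinase of the CREB coactivators, had 154 control counts, against 516, 1 and 77 counts in treated libraries 1, 2 and 3. Its level was 25.3 CPM (21.5 to 29.6) in the control library, 129 (118 to 141) in treated library 1 and 28.5 (22.5 to 35.7) in treated library 3. The single count in treated library 2 gives 7.47 CPM with an interval of 0.189 to 41.6, so that a fall was not detectable at that depth. The x-fold was 5.11 (4.26 to 6.16), 0.295 (0.00743 to 1.67) and 1.13 (0.847 to 1.49) in treated libraries 1, 2 and 3, and the interval of treated library 2 lies below that of treated library 1. As for CREM, treated library 1 was the high one and treated library 3 overlapped the control library.

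DUSP1, the MAP kinase phosphatase, had 504 control counts, against 1583, 9 and 420 counts in treated libraries 1, 2 and 3. Its level was 82.8 CPM (75.7 to 90.4) in the control library, against 397 (377 to 417), 67.3 (30.8 to 128) and 156 (141 to 171) in treated libraries 1, 2 and 3. Here the interval of treated library 3 lay above that of the control library, and treated library 2 overlapped the control library. The x-fold was 4.79 (4.33 to 5.31), 0.812 (0.369 to 1.55) and 1.88 (1.65 to 2.14) in treated libraries 1, 2 and 3.

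**Figure D1:**
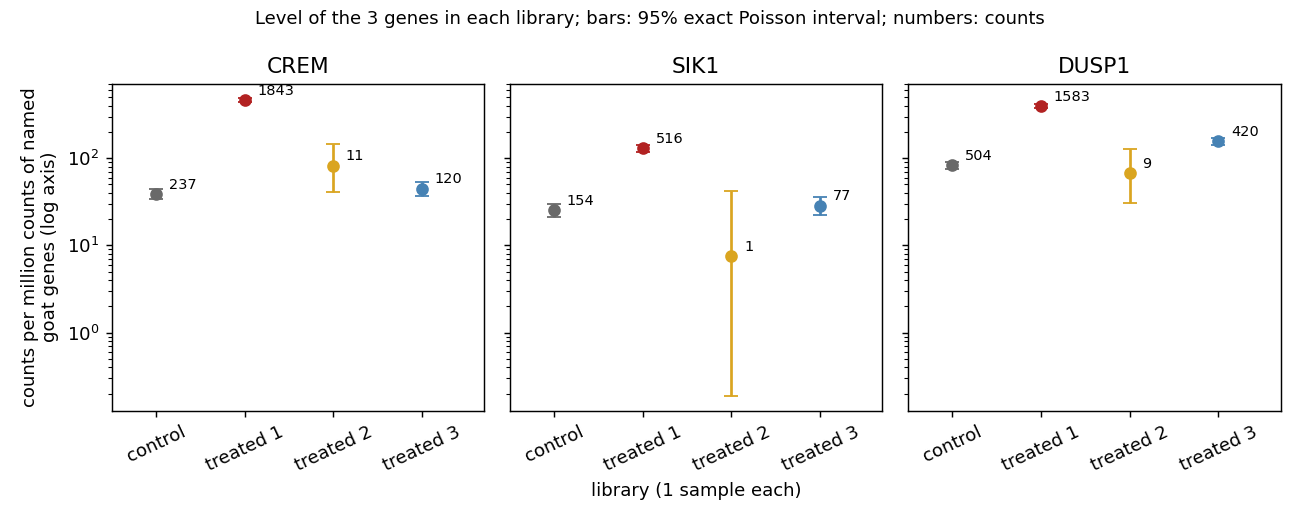
Level of CREM, SIK1 and DUSP1 in each library, in counts per 1000000 counts of named goat genes on a log axis, with 95% exact Poisson intervals as bars and the counts beside the points. Treated library 1 is the highest for each gene (462, 129 and 397 CPM), and the bars of treated library 2, on 11, 1 and 9 counts, are the widest.

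The order of the 3 genes also differed among the libraries. Per kilobase of transcript, DUSP1 was the highest of them in the control library, at 45.5 CPM per kilobase, before CREM at 29.8 and SIK1 at 6.41. In treated library 1, CREM led at 366, before DUSP1 at 217 and SIK1 at 32.7, while in treated library 3 DUSP1 led again at 85.4, before CREM at 33.4 and SIK1 at 7.23. Treated library 2 had the order of treated library 1, with CREM at 64.1, DUSP1 at 37.1 and SIK1 at 1.90, on 11, 9 and 1 counts. The ratio of 2 genes within a library does not depend on how libraries are scaled, and for the counts of CREM over DUSP1 it was 0.470 (0.401 to 0.550) in the control library, against 1.16 (1.09 to 1.25), 1.22 (0.460 to 3.34) and 0.286 (0.231 to 0.351) in treated libraries 1, 2 and 3. CREM thus stood higher relative to DUSP1 in treated library 1 than in the control library, and lower in treated library 3. For SIK1 over DUSP1 the ratio was 0.306 (0.253 to 0.367) in the control library and 0.326 (0.295 to 0.360) in treated library 1, with overlapping intervals, and 0.183 (0.142 to 0.234) in treated library 3. For CREM over SIK1 it was 1.54 (1.25 to 1.90) in the control library, 3.57 (3.24 to 3.95) in treated library 1 and 1.56 (1.16 to 2.10) in treated library 3, with the interval of treated library 1 above both others.

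The 3 genes were chosen by their counts in the treated libraries against this control library, so their x-folds are a description and were not tested. An x-fold above 3 was taken as higher and one below 0.6 as lower, with 0.5 counts added and at least 10 counts in the library pair. All 3 genes were above 3 in treated library 1, as were 5.47% of the 9236 named genes with enough counts, while 39.0% were below 0.6. Of those genes, 53 had a higher x-fold than CREM, 216 than SIK1 and 234 than DUSP1. In treated library 2, where 14.3% of the genes lay above 3 and 31.0% below 0.6, CREM and DUSP1 lay between the limits and SIK1, on its 1 count, below them. None of CREM, SIK1 and DUSP1 lay outside the limits in treated library 3, beside 2.67% of all genes above 3 and 39.1% below 0.6. There, 723 of 9068 genes had a higher x-fold than DUSP1, 2140 than CREM and 2188 than SIK1.

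**Figure D2:**
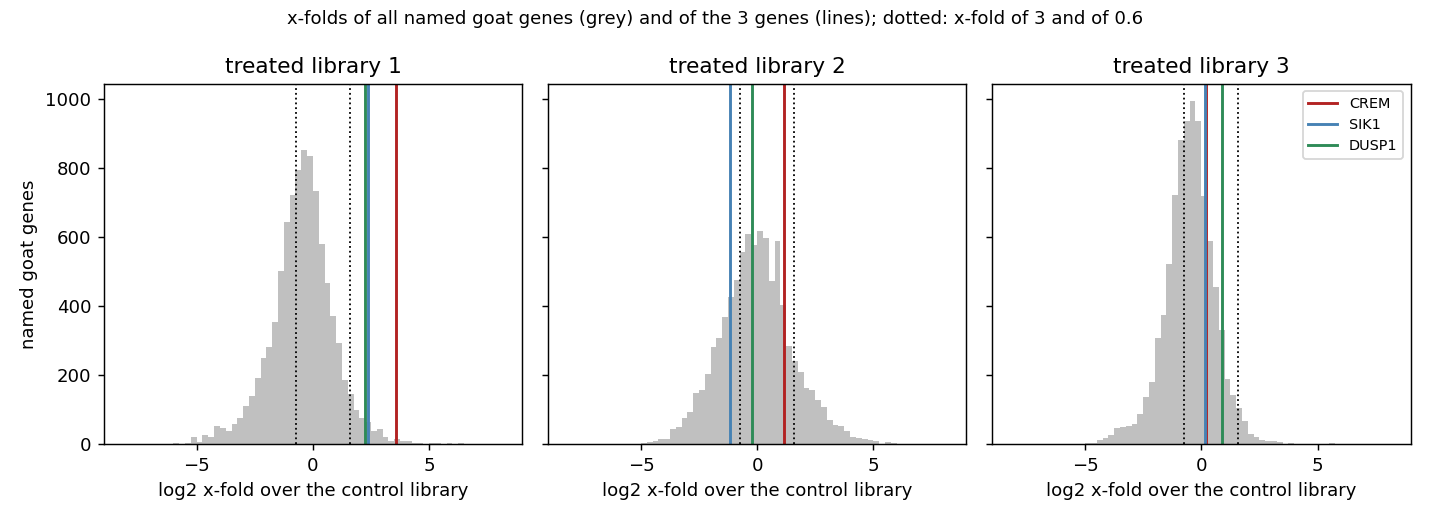
Number of named goat genes by log2 x-fold over the control library in each treated library (grey), with CREM, SIK1 and DUSP1 as lines and the x-folds of 3 and 0.6 as dotted lines. The 3 lines lie in the right tail in treated library 1, beyond the x-fold of 3 that 5.47% of the genes passed, while in treated library 3 they lie inside the limits, with the line of CREM behind that of SIK1, and 1 gene of treated library 2 lies beyond the right edge.

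Treated libraries 1 and 3 also differed from each other. Treated library 1 over treated library 3 gave a ratio of 10.4 (8.63 to 12.6) for CREM, 4.53 (3.56 to 5.83) for SIK1 and 2.55 (2.29 to 2.84) for DUSP1. Of 8223 named genes, 6.23% had a ratio above 3, among them CREM and SIK1, and 14.1% a ratio above 2, DUSP1 included. These libraries had 3991046 and 2697657 counts of named genes. They carry the same label, and no second library of either kind shows how far such a gap is usual.

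The choice of the library total set the size of the x-folds. It also set the direction for CREM and DUSP1 in treated library 2 and for CREM and SIK1 in treated library 3. All 3 genes stayed above an x-fold of 3 in treated library 1 under every scaling that was run, from 8.33 to 16.4 for CREM, from 3.59 to 7.06 for SIK1 and from 3.35 to 6.62 for DUSP1. For treated library 3, CREM was at 1.14 relative to named genes, at 1.50 after TMM scaling and at 0.647 relative to all counts, and SIK1 was at 1.13, 1.48 and 0.639. For these genes treated library 3 therefore gives no direction. DUSP1 in treated library 3 was above 1 throughout, at 1.88 relative to named genes, 2.47 with TMM and 1.07 (0.934 to 1.21) relative to all counts, the last with an interval that includes 1. Mitochondrial unigenes filled treated library 2, and relative to all counts CREM was at 0.0540, SIK1 at 0.00755 and DUSP1 at 0.0208. The glycolytic enzyme GAPDH, the reference gene, had 18289 CPM in the control library, against 16679, 31425 and 31474 CPM in treated libraries 1, 2 and 3. Relative to it, x-folds in treated library 1 were 13.0 for CREM, 5.60 for SIK1 and 5.25 for DUSP1.

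**Figure D3:**
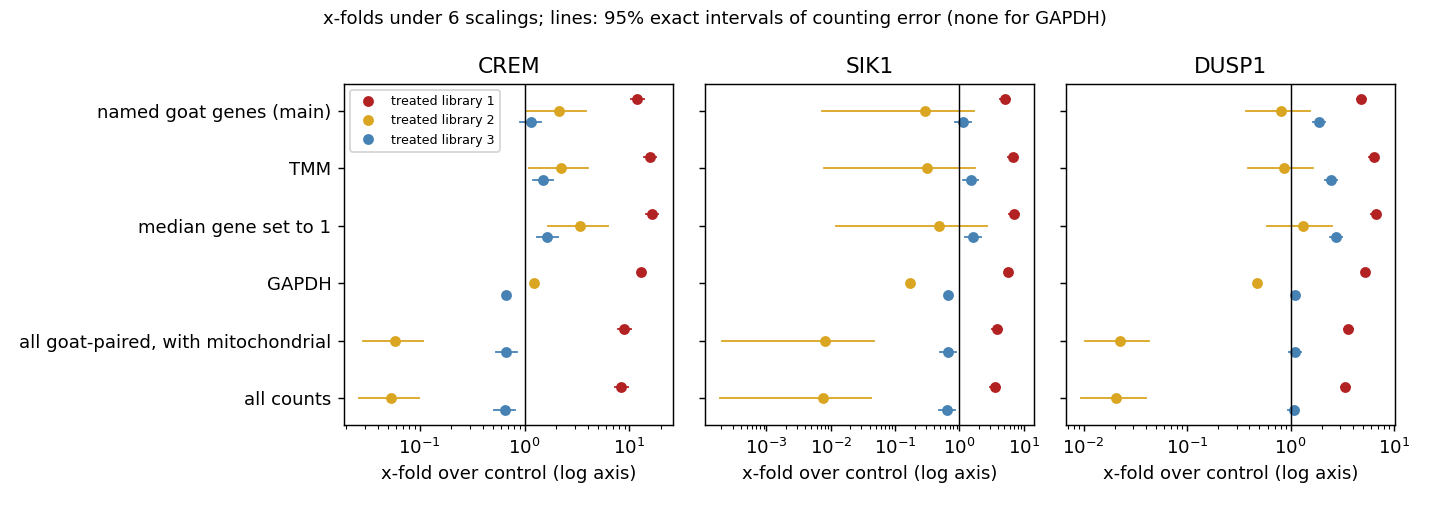
x-fold over the control library (log axis) of CREM, SIK1 and DUSP1 in the treated libraries under 6 scalings, with 95% exact intervals of counting error as lines where they were calculated. The points of treated library 1 lie to the right of 3 in every line (for CREM from 8.33 to 16.4), while those of treated library 3 change sides of 1 for CREM and SIK1.

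Nearly all of the CREM counts came from the unigene with the DNA-binding domain printed above. It held 231 of 237 counts in the control library (97.5%), and 1820 of 1843 (98.8%), 11 of 11, and 119 of 120 (99.2%) in the treated libraries in their order. The unigene with the kinase-inducible domain held 6, 23, 0 and 1 counts, which is 2.53% (95% Wilson interval 1.17 to 5.41) of the CREM counts in the control library, 1.25% (0.833 to 1.87) in treated library 1 and 0.833% in treated library 3. The intervals of the shares in the control library and treated library 1 overlapped, and 0 of 11 counts in treated library 2 allows a share of up to 25.9% by the same interval. The second unigene, on these few counts, had an x-fold of 5.85 (2.31 to 17.6) in treated library 1.

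The unigene with the DNA-binding domain was assembled as 5 transcripts of 1261 to 1749 bases, and they were not higher by the same factor in treated library 1. The longest, i1, took 35.9% (30.0 to 42.2) of the CREM counts in the control library, 23.0% (21.1 to 25.0) in treated library 1 and 35.0% (27.1 to 43.9) in treated library 3. The shortest, i2, took 12.7% (9.01 to 17.5), 19.0% (17.3 to 20.9) and 5.83% (2.85 to 11.6). The share of i1 was thus lowest in treated library 1, and that of i2 was higher there than in treated library 3, with intervals apart. Transcript i4 had 10.5% (7.25 to 15.1) in the control library and 17.3% (15.6 to 19.0) in treated library 1, and i5 had 8.86% (5.87 to 13.2) and 14.8% (13.2 to 16.5), while i3 had 29.5% (24.1 to 35.6) and 24.7% (22.8 to 26.7). The x-folds in treated library 1 were 7.61 (6.01 to 9.72) for i1 and 9.91 (7.69 to 12.9) for i3, but 17.8 (12.3 to 26.8) for i2, 19.4 (12.9 to 30.4) for i4 and 19.8 (12.7 to 32.4) for i5. The intervals of i2, i4 and i5 lay above that of i1. Expected counts divide reads among transcripts that share sequence by an estimate, and these intervals leave out the error of that division. Only the longest transcript's sequence was used here, so what sets the others apart is not stated.

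**Figure D4:**
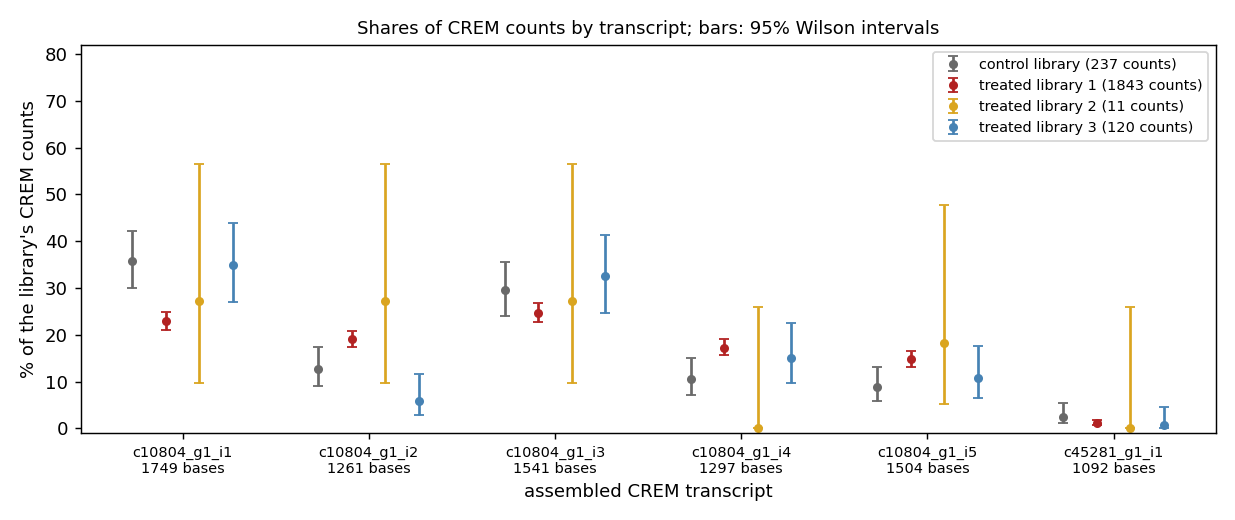
Share of the CREM counts of each library (%) held by each of 6 assembled transcripts, with 95% Wilson intervals. The share of the longest transcript i1 is 23.0% in treated library 1 against 35.9% in the control library, and treated library 2 is imprecise with 11 counts.

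The unigenes also hold bases outside the coding stretches that the annotation gives. These were searched for elements that cyclic AMP and RNA decay are known to use. The element TGACGTCA, the consensus that CREB and CREM bind, and its variant TGATGTCA were searched on both strands before the coding stretch, and the nonamer TTATTTATT, bound by factors that shorten the life of early mRNAs, on the RNA strand after it. The motifs do not overlap each other. The matches are printed with 8 bases on either side of the motif, which is in capitals.
CREM unigene c10804_g1, motif at 280 to 287: ctgcacgcTGACGTCAgtccgagt
CREM unigene c10804_g1, motif at 69 to 76: taggctaaTGATGTCAttgtgatg
CREM unigene c10804_g1, motif at 80 to 87: tgtcattgTGATGTCAgtactcct
DUSP1 unigene c1259_g1, motif at 1439 to 1447: gctggtctTTATTTATTtaatttc
DUSP1 unigene c1259_g1, motif at 1712 to 1720: actttgttTTATTTATTtttgtgt

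The 431 bases before the CREM coding stretch held TGACGTCA at 1 place, 144 bases before the start of the coding stretch, and TGATGTCA at 2 places. Of 1044 unigenes compared over a window of the same length, 7 (0.670%) held the first motif and 26 (2.49%) the second. Neither was found in the 234 bases before the DUSP1 coding stretch or in the 301 bases before that of SIK1, where 0.323% and 0.471% of windows of those lengths held TGACGTCA, and 1.41% and 1.82% held TGATGTCA. These windows are transcribed sequence, and the promoters upstream of them were not analysed here. Whether the annotated coding stretches start at the first codon of each protein was not tested, so the bases before them may be coding. The SIK1 activation loop begins as early as base 208 of its stretch. The 301 bases before that stretch therefore cannot be taken as a known 5′ leader of SIK1. The 684 bases after the DUSP1 coding stretch held TTATTTATT at 2 places, as did at least 1 place in 110 of 3394 windows of that length (3.24%). It was found in neither the 1033 bases after the coding stretch of c10804_g1 nor the 1841 bases after that of SIK1, where 4.45% and 7.67% of windows held it. A match is a description of the letters and not of binding.

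The other genes of the route were read from lists of relatives, partners and targets, and beside them the median x-fold of all named genes was 0.742, 0.972 and 0.719 in treated libraries 1, 2 and 3. The 0.5 counts added weigh most at the depth of treated library 2, where CREB1 stood at 1.68 on 0 counts. For genes with at least 50 control counts, without added counts, the median there was 0.620. The 0.972 is therefore no firm background. Of 7 CREM relatives and CREB coactivators with enough counts, 0 were above 3 in any treated library, and 4, 4 and 6 were below 0.6 in treated libraries 1, 2 and 3. Their median x-fold was 0.398, 0.447 and 0.534, and in treated library 1 it was 0.524 with TMM, against 0.978 for all genes. In treated library 3, only 3 of the 7 were below 0.6 with TMM, with a median of 0.703 against 0.947 for all genes. EP300, a histone acetylase that CREB recruits, lay below 0.6 in all 3 treated libraries, as did 13.4% of 8716 genes. It had 152, 19, 1 and 19 counts in the control library and treated libraries 1, 2 and 3. On the 1 count in treated library 2, the interval of its ratio (0.00753 to 1.69) includes 1. CREB1, the relative of CREM that activates, had only 13, 3, 0 and 2 counts, and the coactivator CRTC2 had 197, 51, 4 and 47.

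The shares of all genes below 0.6 (39.0%, 31.0% and 39.1%) are the background for every list of pathway genes. So are the shares above 3 (5.47%, 14.3% and 2.67%), in treated libraries 1, 2 and 3. Of 12 SIK relatives, upstream kinases and targets, 0 were above 3, and 6, 5 and 5 were below 0.6, with medians of 0.607, 0.637 and 0.742, and these counts do not set the list apart from all genes. The related kinase SIK3 had x-folds of 0.490, 0.354 and 0.455, on 577, 185, 4 and 116 counts, and MEF2A, a transcription factor of muscle genes, had 113, 14, 0 and 5 counts. SIK2, also of this family, had 36, 1, 0 and 1 counts. In the list of DUSP relatives, 0 of 14 were above 3 in treated library 1, 2 of 13 in treated library 2 (DUSP11 on 2 counts and DUSP23 on 6) and 0 of 13 in treated library 3, and 4, 5 and 4 were below 0.6, with medians of 0.979, 0.838 and 0.804, which does not set this list apart either. With TMM, 1 of the 14 was above 3 in treated library 1, which was DUSP11 on 33 counts. DUSP3, a small phosphatase of MAP kinases, had 748, 76, 0 and 134 counts. DUSP6, a phosphatase of ERK, had 941, 140, 3 and 335 counts, giving 0.228 for treated library 1 and 0.804 for treated library 3.

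The MAP kinases, which DUSP1 inactivates, and their kinases lay mostly below the limit or between the limits, as did most named genes. Of 15 in treated library 1, 1 was above 3 (MAPK11, with 4 control counts and 19 counts there) and 8 were below 0.6, with a median of 0.428. Of 14 in treated library 3, 0 were above 3 and 5 below 0.6, with a median of 0.736. There 39.1% of all genes were below 0.6, with a median of 0.719, which does not set this list apart in that library. Of 14 in treated library 2, 1 was above 3 (MAPK7 on 2 counts) and 9 were below 0.6, with a median of 0.505. MAPK14, the p38α kinase and a substrate of DUSP1, had x-folds of 0.232, 0.461 and 0.426, and MAPK8, the kinase JNK1, had 49, 9, 0 and 11 counts. MAPK6 had x-folds of 0.254, 0.133 and 0.244. MAP2K4, which activates JNK and p38, had 0.428, 0.584 and 0.534. In treated library 2 the values of MAPK14, MAPK6 and MAP2K4 rest on 2, 1 and 3 counts. There the intervals of the ratio for MAPK14 (0.0445 to 1.35) and MAP2K4 (0.103 to 1.48) include 1.

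Upstream of the 3 genes, the parts that make cyclic AMP or form protein kinase A lay on both sides of the limits in treated library 1. Of 11 such genes, 1 was above 3 and 6 were below 0.6, with a median of 0.511. It was PKIG, an inhibitor of protein kinase A, with 17 counts in the control library and 43 in treated library 1, and relative to all goat-paired counts it was not above 3. Above 3 in treated library 3 were 0 of 11, with 5 below 0.6 and a median of 0.635, beside 39.1% and 0.719 for all genes. PRKACA, the catalytic subunit of protein kinase A, had x-folds of 0.206, 0.336 and 0.595, and its regulatory partner PRKAR2A had 0.356, 0.328 and 0.571. The adenylate cyclase ADCY9 had 0.125, 0.219 and 0.328, and ADCY6 had 46, 7, 0 and 6 counts. In treated library 2 the values of PRKACA, PRKAR2A and ADCY9 rest on 5, 23 and 3 counts. For treated library 2 the numbers were 2 of 10 above 3 (ADCY4 and PKIG) and 6 below 0.6.

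Other genes that cyclic AMP is known to switch on had the highest median of the 6 lists of pathway genes in treated library 1. There 12 of 21 were above 3 and 2 below 0.6, with a median x-fold of 3.60. Among the 12, NR4A2, NR4A3, BTG2 and GEM had only 7, 1, 6 and 5 control counts. They reached 10 counts in the pair only through their 29, 36, 114 and 28 counts in treated library 1. PDE4A, with 7 control counts, had 0 in treated library 1 and was left out. The number above 3 and the median are therefore raised by the filter in treated library 1. Relative to all goat-paired counts, 8 were above 3 and 2 below 0.6 there, with a median of 2.70 against 0.557 for all genes, and with TMM 14 and 1, with a median of 4.74 against 0.978. For treated library 3, 6 of 21 were above and 6 below, with a median of 1.06 against 0.719 for all genes. NR4A2, BTG2 and GEM, among the 6 above, again passed the filter only through their counts in the treated library. For treated library 2, 5 of 17 were above and 7 below, with a median of 0.682. That lay under the 0.972 of all genes but above the 0.620 of genes with at least 50 control counts. It therefore gives no direction against other genes. The list was chosen with earlier results of these data known. The nuclear receptor NR4A1 was above 3 in treated libraries 1 and 3 (3.62 and 4.11), while ATF3, a stress-responsive relative of CREB, was at 5.81 and 1.26, and the phosphodiesterase PDE4D, which breaks down cyclic AMP, at 4.37 and 0.450. ID1, an inhibitor of differentiation factors, had 32, 310, 23 and 173 counts and KLF4, a transcription factor, 110, 260, 15 and 265, and both were above 3 in all 3 treated libraries relative to named genes, as were 53 of 8716 genes (0.608%), whereas relative to all goat-paired counts ID1 was at 0.914 and KLF4 at 0.177 in treated library 2, and KLF4 at 2.70 in treated library 1. PDE4B, another phosphodiesterase of cyclic AMP, had 990, 120, 5 and 160 counts and was below 0.6 in all 3, as were 13.4% of genes.

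**Figure D5:**
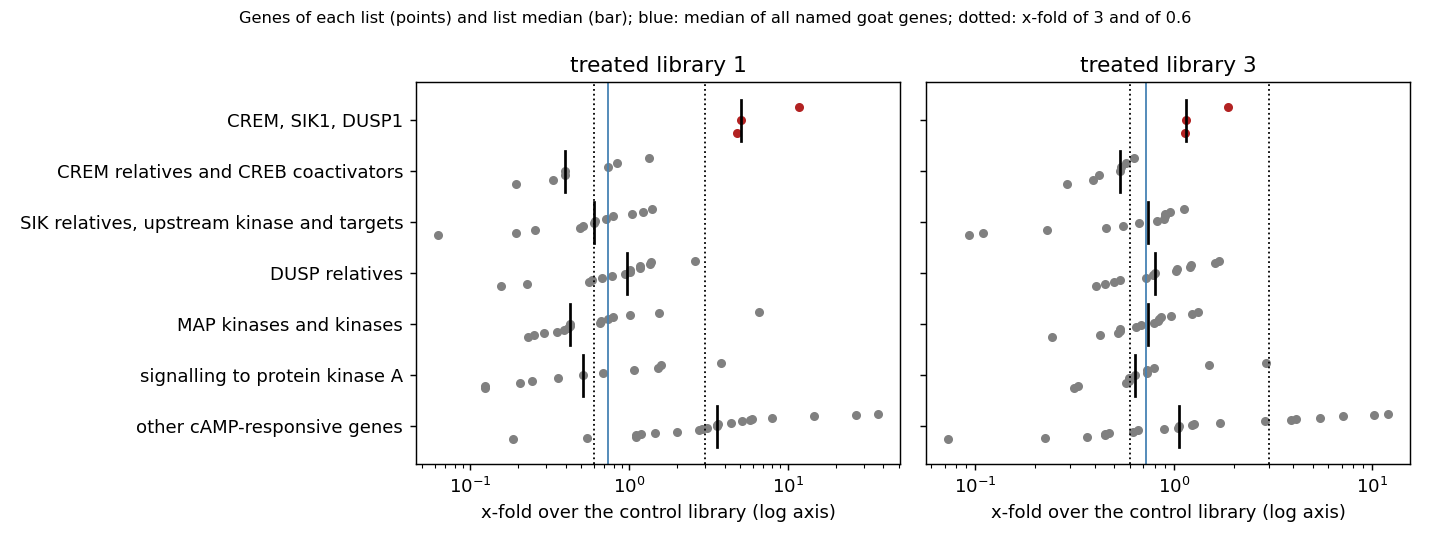
x-fold over the control library (log axis) of the genes of each list in treated libraries 1 and 3, with list medians as black bars, the median of all named goat genes as a blue line and the x-folds of 3 and 0.6 dotted. The other cAMP-responsive genes have a median of 3.60 against 0.742 for all genes in treated library 1, and in treated library 3 it is 1.06 against 0.719.

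A test of all named genes, with the 3 treated libraries as replicates against the control library, was made by edgeR's quasi-likelihood test with Benjamini-Hochberg adjustment. It called 12 of 8494 genes higher (0.141%) and 26 lower (0.306%), and 949 at an unadjusted p under 0.05. With 1 control library, this test assumes that control muscle varies as the treated libraries do, and their days and animals are not known. Of the 21 other cAMP-responsive genes, 2 were called higher. They were ID1, with a log2 change of 4.48 (adjusted p = 0.0285), and BTG2, an early gene that slows cell division, with 4.50 (adjusted p = 0.0325) on 6, 114, 1 and 29 counts. Without treated library 1 the adjusted p by edgeR was 0.106 for ID1 and 0.347 for BTG2, and without treated library 3 it was 0.163 and 0.202. Of the lists of relatives, coactivators, MAP kinases and signalling parts, 0 genes were called. Of the skeletal muscle markers, ACTA1 was called lower, with a log2 change of −3.63 (adjusted p = 0.0325 by edgeR), and its adjusted p was 0.262 without treated library 1, 0.428 without treated library 3 and 0.549 by DESeq2. Its reads may be divided among actin unigenes, as said above.

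The genes whose pattern was most like each of the 3 were looked for among 5948 others with at least 50 counts in the control library, by the Euclidean distance of the 3 log2 x-folds. The genes nearest to CREM were PMP22, a myelin protein (distance 0.691, with 101, 736, 6 and 75 counts), ITPRIP (0.805), PPP1R15A, which directs a phosphatase to a translation factor (1.15), and DNAJB4, a heat shock cochaperone (1.30). For SIK1 they were ATF3 (0.281, with 140, 535, 1 and 78 counts), LOC102172644 (0.568), CPEB2 (0.809) and CEBPA, a transcription factor of fat cells and other tissues (0.844). For DUSP1 they were CEBPA (0.512, with 579, 1638, 9 and 354 counts), ZFP36, which binds the nonamer searched above (0.716), SIAH2 (0.761) and IER2 (0.792). The 3 genes were not each other's nearest, since DUSP1 was the gene of rank 20 for SIK1 and of rank 47 for CREM. The distances include treated library 2, where most of these genes had under 10 counts.

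Markers of other cells were read beside these values. The 4 adipocyte markers with a unigene summed to 168 CPM in the control library, against 165, 867 and 122 in treated libraries 1, 2 and 3. The 4 fibroblast markers summed to 114, 168, 2220 and 270, and 6 of the 7 endothelial and smooth muscle markers to 351, 269, 882 and 467. The other one of these, ACTA2, held most of that list's counts, and with it the sums were 39486, 24995, 32606 and 55866 CPM. ACTA2 had 238187 control counts against 130 for ACTA1, and its unigene may hold reads of that near-identical skeletal actin, which was not tested. The sums with ACTA2 are therefore no measure of smooth muscle. Treated library 2 was thus the highest in the adipocyte and fibroblast sums, and in the endothelial and smooth muscle sum only without ACTA2. In the control library the adipocyte sum was carried by PLIN4, a lipid droplet protein, with 930 of 1020 counts and an x-fold of 0.353 in treated library 1. Within that list the fat cell hormone ADIPOQ had 75, 403, 99 and 64 counts and the lipid droplet gene CIDEC 9, 34, 11 and 9, with x-folds of 8.15 and 5.54 in treated library 1, and the median of the 4 was 3.41. These x-folds were higher than those of SIK1 and DUSP1 in the same library. The myeloid markers with a unigene, 4 of 8, had 11, 26, 1 and 6 counts in all, the red blood cell markers, 2 of 5, had 27, 24, 2 and 19, and none of the 6 B and plasma cell markers had a unigene. The part of other cells in the values of CREM, SIK1 and DUSP1 was not tested.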

How the data were processed

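Longissimus dorsi muscle RNA of 1 control and 3 treated goat samples was sequenced. The authors assembled the reads into unigenes and deposited for each unigene and transcript an expected count, all whole numbers, with TPM for transcripts and FPKM for both. Another deposited table assigns goat genes to unigenes and lists how similar the proteins are, in percent. FastQC 0.10.1 is in the submitters' processing notes, and the assembler, aligner, counter and build are not given in the sources used here.

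Expected counts of 21195 named unigenes were summed per gene. The 25 paired unigenes without a gene name, all for mitochondrial proteins, were kept out of library totals and held 23.8, 42.8, 97.9 and 55.2% of the goat-paired counts in the control library and treated libraries 1, 2 and 3. x-folds had 0.5 counts added for the limits, which follow the study's methods, and intervals were at 95%. Counts were tested across genes with edgeR 4.0.16 (R 4.3.3, TMM, filterByExpr), with DESeq2 1.42.0 as an alternative, after a check on simulated counts. The simulated counts varied much less than these data, whose fitted common dispersion was 0.230. The check therefore does not show the error rate of the test here. Replicates are separate samples by label, and p-values measure only the spread between them. Motifs and coding stretches were read with Python 3.11.15.

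The 3 genes and the gene lists were chosen with earlier results of these data known. Named are the 3 genes, GAPDH, the 4 nearest genes to each, and, in each list other than the markers, up to 4 genes that all 3 treated libraries put past the same limit or that edgeR called, otherwise the 4 with the highest control level. CREB1, CRTC2, SIK2, DUSP6, DUSP11, DUSP23, MAPK7, MAPK11, ADCY4, PKIG, NR4A1, NR4A2, NR4A3, GEM, ATF3, PDE4A, PDE4D, TFCP2L1 and the marker genes named were added after their values were seen. The result for 1 gene of the signalling list is not reported here.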

Additional observations from a re-analysis of the deposited data

How the results depend on the processing

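The x-folds of CREM, SIK1 and DUSP1 in treated libraries 1, 2 and 3 were recalculated under other choices, and none changed a test, as none was made. Of 81 such values, 42 stayed within the counting interval and 39 did not. This tally does not measure stability, since 3 of the choices could hardly move a value. The limit of at least 80% identity removed no unigene, and leaving out the named mitochondrial gene left the totals almost the same. The unigene with the most counts was the only one for SIK1 and DUSP1 and held nearly all CREM counts. In treated library 2 the intervals were also wide. In treated library 1 the x-folds of CREM, SIK1 and DUSP1 were 8.33, 3.59 and 3.37 relative to all counts, 8.90, 3.84 and 3.60 relative to all goat-paired counts with the mitochondrial unigenes (an alternative chosen after seeing the data), 15.6, 6.73 and 6.31 with TMM, 16.4, 7.06 and 6.62 with the median gene set to 1, and 8.64, 3.59 and 3.35 from FPKM. In treated library 2, CREM was at 0.0540, 0.0586 and 0.0551 relative to all counts, to all goat-paired counts and from FPKM, DUSP1 at 0.0208, 0.0226 and 0.0209, and SIK1 from FPKM at 0.00656. In treated library 3, CREM was at 0.647, 0.672, 0.635 and 0.664 relative to all counts, goat-paired counts, FPKM and GAPDH, and at 1.50 and 1.66 with TMM and the median gene. There SIK1 was at 0.639, 0.663, 0.639, 0.656 and, with the median gene, 1.63, and DUSP1 at 1.07, 1.11, 1.06, 1.09, 2.47 and 2.72. The totals differ by the mitochondrial share of each library. From TPM, the shares of CREM transcripts i1, i2 and i4 in treated library 1 were 18.7, 22.5 and 19.7%. Goat genes above the x-fold of 3 in treated library 1 numbered 505, against 862 with any count, 292 with at least 50 counts, 816 with TMM and 314 with all goat-paired counts. In treated library 2 they numbered 1247, against 3219, 465 and, with all goat-paired counts, 6, where 8661 genes in place of 2706 were below 0.6. In treated library 3 they numbered 242, against 547, 102, 442 and 65, and genes below 0.6 numbered 3545, against 2226 with TMM and 6448 with all goat-paired counts. edgeR called 38 genes, 104 without the filter on low counts and 1 to 68 when a treated library was left out (7 without treated library 1, 68 without 2 and 1 without 3), and DESeq2 called 2. ID1 kept its call with DESeq2 (adjusted p = 0.00884) and BTG2 did not (0.240). No paired analysis was possible because there is 1 control library and the labels mark no pairs of samples.

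Depth limits treated library 2 most, where CREM, SIK1 and DUSP1 had 11, 1 and 9 counts. With 1 control library, no difference from it has a replicate check, and the spread between control animals is not known. The days of the treated libraries are not in the labels.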
